A study of Bos taurus with 68 samples.

Results

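The comparison described here sets liver taken 30 days before calving against liver taken 65 days before calving from the same 5 cows. It covers 20 of the series' 68 arrays, 10 for each day, and all 20 belong to the larger of 2 deposited tables, which holds 60 arrays. Arrays were chosen by the day given in their labels, and the cows are 6934, 6983, 7079, 7186 and 7188. For every cow there were 2 cDNA arrays per day, with the dyes exchanged, and liver RNA was hybridised against a reference standard RNA whose make-up the labels do not give. No treatment is named in the labels of either group. The labels give the day relative to calving only. They state neither breed nor age, nor whether a cow was still milked on either day, so day -65 and day -30 cannot be called the end of lactation and the middle of the dry period from these sources.

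The last months of gestation are the time in which a dairy cow is usually dried off, so that the udder rests and renews its tissue before the next lactation. The liver of a pregnant ruminant makes nearly all of the animal's glucose from propionate, lactate and amino acids, since little sugar leaves the rumen intact. It also exports plasma proteins, detoxifies ammonia through the urea cycle and burns or re-esterifies the fatty acids that arrive from fat tissue, and the demand on these routes climbs steeply only around calving.

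Every value below is a log2 ratio of liver over reference, averaged over the spots of a clone and over the exchanged pair of arrays. A difference is day -30 minus day -65 within a cow, so that 1 stands for a 2-fold higher ratio on day -30. The direction of the ratio is only likely, because the labels do not name the numerator dye. It rests on genes that hepatocytes are known to make. With the sign taken this way, 8 of 8 genes enriched in hepatocytes had mean ratios above 0 on day -65 and 7 of 8 on day -30, when APOA1 lay at -0.148 ± 0.166 (SD, n = 5 cows). Among them, the iron carrier transferrin (TF) lay at 4.02 ± 0.427 (SD, n = 5 cows) on day -65 and at 4.34 ± 0.272 on day -30. If the ratio runs the other way, every sign below turns, also that of the differences.

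The 20 arrays had 15186 to 16288 of 16416 rows measured, and the replicate spots of a clone correlated at 0.545 to 0.889 within an array. The ratios of the exchanged pair, before turning, correlated below 0 in all 10 cow-days, between -0.476 and -0.0664, and turning the arrays with liver in Cy3 made them run the same way. In 5 of the 30 cow-days of the whole table, none of them on these days, the pair did not correlate below 0; these 5 enter the residual spread and the means of other days, and the test gave 0 calls without them as well. Cow 7186 stood apart from the other 4 cows. Its median size of difference between the days was 0.699, against 0.247 to 0.352 in the others, and 33.5% of its probes differed by 1 or more, against 4.10% to 12.9%. Its levels on the 2 days correlated at 0.541, the lowest of the 5 cows, whose highest was 0.866 in cow 6983. Its value, or the mean without it, is given beside many of the genes and lists below.

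**Figure D1:**
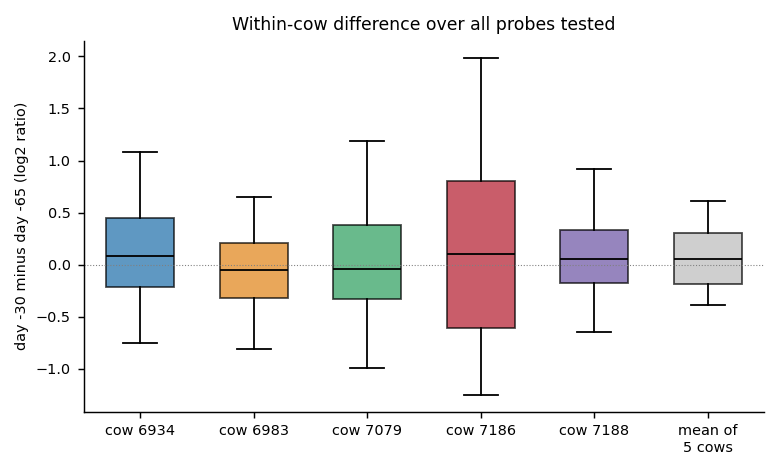
Box plot of the within-cow difference in log2 ratio (day -30 minus day -65, vertical axis) over all probes tested, for each of the 5 cows and for the mean of the 5; the box spans the quartiles, the line is the median and the whiskers reach the 5th and 95th percentiles. Cow 7186 has the widest box, and the mean of the 5 cows has the narrowest spread.

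No single gene passed the test between the days. Of 5280 probes, which name 4213 genes, 0 (0%) reached an adjusted p under 0.05 with limma. It was fitted to day and cow on the whole table of 7 days, and the smallest adjusted p was 0.332. The ± after a difference is the SE of this fit, whose spread is pooled over the cow-days of all 7 days. It does not measure the spread of the 5 within-cow differences. Their SD was 1.5 for ACSL1, with an SE of 0.504, and 0.162 for TKDP1, with an SE of 0.245. At an unadjusted p under 0.05 there were 524 probes, or 9.92%, of which 282 (5.34%) were higher and 242 (4.58%) lower on day -30. This near balance was not kept with only the 2 days in the fit, which gave 241 higher and 53 lower. An ordinary paired test without moderation called 0 as well and had 245 at an unadjusted p under 0.05. The 3570 rows that carry no clone name and could be tested gave 0 calls and 319 (8.94%) at an unadjusted p under 0.05. Weighting the cow-days by how closely each followed the fit gave 82 calls (1.55%). Such weights do not measure array quality apart from the fit. With them there were 0 calls without cow 7188 and 3 without cow 6934, the cows with the highest weights of these days. The median probe had a 95% interval of ± 0.487 and the widest 5% had one beyond ± 0.893, and a difference smaller than its probe's interval could not be told from 0. With 5 cows, an exact test that flips the signs of single differences cannot go below 0.0625 for any 1 gene.

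The cows shared little of their difference. Between pairs of cows, the difference over all probes correlated at -0.223 to 0.229, with a median of 0.0434 over the 10 pairs, and 3 pairs lay below 0. These points share the arrays, the clones and the spots, and they are a description. All 5 cows had the same sign for 458 of 5107 probes measured in every cow on both days, or 8.97%, with 234 higher on day -30 (4.58%) and 224 lower (4.39%). The 5 values of one day lay wholly above those of the other for 59 probes (1.16%), 41 with day -30 above (0.803%) and 18 with it below (0.352%). Only 17 probes (0.322%) had a mean difference of 1 or more in size, and the range went from -1.28 to 1.51.

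The genes taken first are those with the largest mean difference among probes that had 1 sign in all 5 cows and an unadjusted p under 0.05. There were 111 such probes higher and 110 lower on day -30, and 10 were named each way. They were chosen by this contrast, so their values describe them and support nothing. Of these 20 genes, 6 had day -30 wholly above day -65 and 2 had it wholly below.

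NOCT had the smallest p of all probes. It encodes nocturnin, a phosphatase whose messenger RNA follows the daily clock in liver. Its log2 ratio on day -65 was -0.51 in cow 6934, -0.516 in cow 6983, -0.395 in cow 7079, -0.25 in cow 7186 and -0.477 in cow 7188. On day -30 the same cows had 0.631, 0.711, 0.416, 0.545 and 1.42. All 5 values of day -30 were above all 5 of day -65, and every cow crossed from below the reference to above it. The mean went from -0.43 ± 0.111 (SD, n = 5) to 0.745 ± 0.393. This is a difference of 1.17 ± 0.257 (SE; limma, p = 0.00013, adjusted p = 0.332). Cow 7186 had the smallest difference of the 5 here, 0.796, and cow 7188 the largest, 1.90. NOCT lay at -0.164 ± 0.334 (n = 3) on day -14 and at 0.671 ± 0.694 (n = 5) on day 28, so values as high as those of day -30 were also met in lactation. The labels give no hour of sampling, and whether it differed between the days was not tested.

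HINFP, a zinc finger protein that switches on histone H4 genes in dividing cells, had the largest difference of any probe. Its log2 ratio was -0.495, -0.406, -1.49, -0.325 and -1.26 on day -65 and 0.373, 0.106, 0.605, 2.03 and 0.452 on day -30, in the cow order used above. The days did not overlap, although the gap between the highest value of day -65 and the lowest of day -30 was smaller than the SD within either day. The difference was 1.51 ± 0.338 (SE; limma, p = 0.000175, adjusted p = 0.332), and the within-cow values ran from 0.512 in cow 6983 to 2.36 in cow 7186. On day -14 HINFP lay at 0.169 ± 0.152 (n = 3) and on day 49 at -0.47 ± 0.499 (n = 4).

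ARMC1, an armadillo repeat protein found at mitochondria, had ratios of -0.56, -0.63, -0.589, -1.51 and -0.53 on day -65. On day -30 they were 0.179, -0.0075, 0.678, 0.399 and 0.485. The groups did not overlap, and 4 of the 5 starting values lay within a narrow band while that of cow 7186 was far lower. The difference was 1.11 ± 0.251 (SE; limma, p = 0.000188, adjusted p = 0.332). A further clone of ARMC1 gave 0.208 ± 0.294 and was higher in 4 of 5 cows. On day -14 ARMC1 lay at -0.739 ± 0.37 (n = 3 of the 5 cows), close to its day -65 mean of -0.764 ± 0.419. Its means were higher on the later days, at -0.17 on day 1, 0.0177 on day 14, -0.22 on day 28 and -0.11 on day 49.

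**Figure D2:**
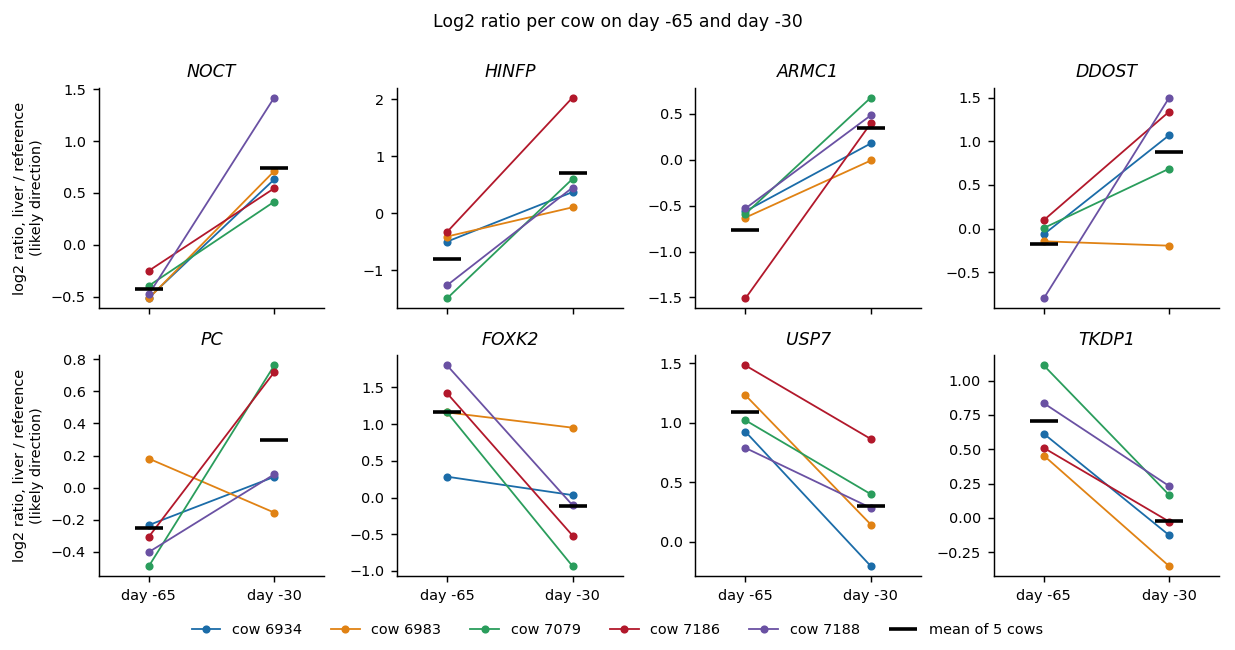
Log2 ratio of liver over reference (vertical axes, each panel with its own scale) on day -65 and day -30 for NOCT, HINFP, ARMC1, DDOST, PC, FOXK2, USP7 and TKDP1; each coloured line is 1 cow and the black bar is the mean of the 5 cows. In NOCT, HINFP and ARMC1 all 5 lines climb, in FOXK2, USP7 and TKDP1 all 5 descend, and in DDOST and PC cow 6983 goes against the other 4.

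The other 7 genes of the higher group spanned cell polarity, vesicle traffic, RNA processing and matrix. PRKCI, an atypical protein kinase C of the cell polarity complex, went from -1.58 ± 0.447 (SD) to -0.545 ± 0.466, a difference of 1.03 ± 0.274 (SE). TRAPPC5, a subunit of the TRAPP vesicle tethering complex, differed by 1.01 ± 0.329, with cow 6983 at 0.109 and cow 7188 at 1.85. REPS1, which takes part in endocytosis, differed by 0.927 ± 0.301. Their limma adjusted p was 0.492 in each case. CELF2, an RNA-binding regulator of splicing, differed by 0.905 ± 0.311 on this clone and by -0.0798 ± 0.413 on another. For KLF6, a zinc finger transcription factor, the named clone gave 1.14 ± 0.348 and the other clone -0.124 ± 0.14. Cow 7186 had 2.70 for KLF6 and the other 4 cows 0.641 to 0.969. MBP, myelin basic protein, gave 1.06 ± 0.419, -0.10 ± 0.159 and 0.352 ± 0.367 on 3 clones, and REPS1 gave 0.0483 ± 0.13 on its other clone. So ARMC1, CELF2, KLF6, MBP and REPS1 each had a further clone, and none of these further clones was as high as the named one.

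Decorin (DCN), a small proteoglycan that binds collagen fibres and is made by stellate cells and fibroblasts, belonged to the same group. Its ratios were -1.24, -1.34, -1.45, -2.02 and -1.12 on day -65 and -0.214, -1.04, -0.718, 0.514 and -0.0925 on day -30. The days did not overlap, and cow 7186 moved from the lowest place to the highest. The difference was 1.12 ± 0.336 (SE; limma, p = 0.00276, adjusted p = 0.492), with 0.298 in cow 6983 and 2.53 in cow 7186. Its mean was -0.938 ± 0.652 (n = 3) on day -14 and -1.39 ± 1.01 (n = 5) on day 1.

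Among the genes lower on day -30, FOXK2 had the largest difference. It encodes a forkhead transcription factor that represses autophagy genes. Its ratios were 0.284, 1.16, 1.16, 1.42 and 1.80 on day -65 and 0.033, 0.952, -0.936, -0.518 and -0.105 on day -30. Cows 7079, 7186 and 7188 differed by -2.10, -1.94 and -1.90, while cows 6934 and 6983 differed by only -0.251 and -0.21, and the days overlapped. The mean difference was -1.28 ± 0.352 (SE; limma, p = 0.00137, adjusted p = 0.492), and a second clone of FOXK2 gave 0.287 ± 0.277, with the opposite sign.

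USP7, a deubiquitinase that stabilises the p53 regulator MDM2, had the most even differences of the lower group. The ratios were 0.924, 1.23, 1.02, 1.48 and 0.788 on day -65 and -0.204, 0.145, 0.40, 0.863 and 0.285 on day -30. Only cow 7186 on day -30 reached into the range of day -65. The difference was -0.789 ± 0.267 (SE; limma, adjusted p = 0.492), and the 5 cows ran from -1.13 to -0.503. IGFBP3, the main plasma carrier of insulin-like growth factors, went from 0.577 ± 0.216 (SD) to -0.448 ± 0.622 on the named clone without overlap, a difference of -1.02 ± 0.35 (SE). Its other clones gave 0.0136 ± 0.168 and 0.355 ± 0.308. ZFP36L2, which binds AU-rich messenger RNAs and speeds their decay, had -0.741 ± 0.343 on a clone whose days did not overlap and 0.331 ± 0.215 on the other clone.

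The remaining 6 genes of the lower group lay between -1.06 and -0.74, all with a limma adjusted p of 0.492. IDUA, a lysosomal enzyme that degrades glycosaminoglycans, had -1.06 ± 0.485 and the kinase STK25 -0.946 ± 0.414. TBC1D10B, an activator of Rab GTPases, had -0.805 ± 0.384 and the pseudophosphatase STYX -0.785 ± 0.37. LOC781256, a pseudogene in the gene table, had -0.841 ± 0.373. LOC281964, for which the gene table lists a pregnancy-associated glycoprotein name, had -0.74 ± 0.307, with cow 7079 at -1.67 and the other 4 cows between -0.563 and -0.446.

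Since every cow and day was measured in both dye orientations, the difference can be read from each orientation alone. Over all probes the mean differences from the 2 orientations correlated at only 0.249, and 64.5% of probes had the same sign in both. All 20 named genes kept their sign in both, though the averaging of the orientations helped to choose them. In the higher group the median gap between the orientations was 0.221, against 0.282 over all probes, and the gaps ran from 0.0102 to 0.682. NOCT had 1.17 with liver in Cy3 and 1.18 with liver in Cy5, HINFP 1.54 and 1.47, PRKCI 1.07 and 0.998. The lower group had a median gap of 1.02. It held genes seen mostly with liver in Cy3, genes seen mostly with liver in Cy5 and genes seen in both. FOXK2 had -2.08 and -0.48 and IGFBP3 -1.77 and -0.277, whereas STYX had -0.0566 and -1.51. USP7, at -0.846 and -0.733, was the gene of the lower group with the smallest gap, 0.113. STK25 had -1.1 and -0.786 and IDUA had -1.28 and -0.846.

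**Figure D3:**
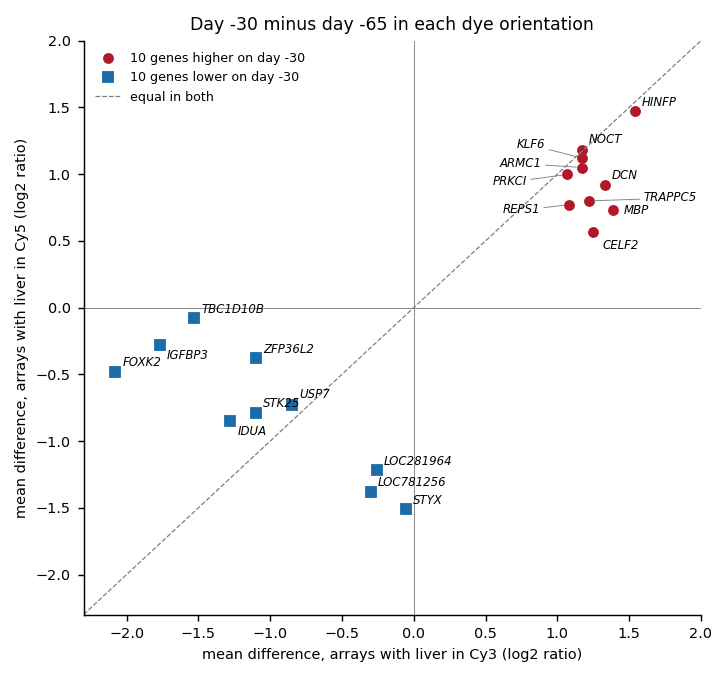
Mean difference in log2 ratio (day -30 minus day -65) from arrays with liver in Cy3 (horizontal axis) against that from arrays with liver in Cy5 (vertical axis) for the 10 named genes higher (circles) and the 10 lower (squares) on day -30; the dashed line marks equal values. Some circles lie near the line, such as HINFP at 1.54 and 1.47, and CELF2 at 1.25 and 0.564 is the circle farthest from it. Most squares lie far from the line, from FOXK2 at -2.08 and -0.48 to STYX at -0.0566 and -1.51.

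The orientations also leaned opposite ways as wholes. With liver in Cy3 alone, 509 probes were higher and 106 lower at an unadjusted p under 0.05, and with liver in Cy5 alone there were 130 higher and 382 lower, against 282 and 242 for the averaged pair. In each case 0 probes passed an adjusted p of 0.05 with limma. Without centring of the arrays it was 90 higher and 118 lower.

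Genes that define liver metabolism were looked at as lists, each gene by its most completely measured clone, and 0 members of any of the 26 lists reached an adjusted p under 0.05. The sign of a list median was seldom firm: 18 of the 26 turned under at least 1 alternative, 12 of them with liver in Cy5 alone, 7 without cow 7186 and 7 without cow 7079. For comparison, 55.1% of all probes lay above 0 and their median difference was 0.0494. Gluconeogenesis and the fate of pyruvate had 10 of 14 genes above 0, with a median of 0.145, and the median was -0.0205 without cow 7186 and -0.0929 with liver in Cy5 alone. Pyruvate carboxylase (PC), which turns pyruvate into oxaloacetate as the first step towards glucose, had ratios of -0.233, 0.181, -0.489, -0.306 and -0.401 on day -65. On day -30 they were 0.0673, -0.155, 0.761, 0.719 and 0.083. Cow 6983 alone was lower on day -30, and the days overlapped through it. The difference was 0.544 ± 0.22 (SE; limma, p = 0.0212, adjusted p = 0.492), 0.832 with liver in Cy3 and 0.257 with liver in Cy5. PDK4, the kinase that shuts off pyruvate oxidation in fasting, had 0.176 ± 0.397 and only cows 6983 and 7186 above 0, at 0.0703 and 2.52. PDK3 had 0.33 ± 0.223, or 0.118 without cow 7186, and PDHA1, a subunit of pyruvate dehydrogenase, had -0.281 ± 0.155 on 1 clone and 0.598 ± 0.285 on another.

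Fatty acid oxidation and ketogenesis had 11 of 15 genes above 0, a median of 0.0772 and 0 genes at an unadjusted p under 0.05. The cows went opposite ways, with list medians of -0.80 in cow 6934 and -0.344 in cow 6983 but 0.743 in cow 7079 and 0.812 in cow 7186. ACSL1, a member of the list that activates long-chain fatty acids, had -2.36 in cow 6934 and 1.62 in cow 7186 around a mean of 0.0821 ± 0.504. CPT1A, the gate of mitochondrial fatty acid entry, had -0.11 ± 0.301 and -0.344 ± 0.366 on 2 clones. ACADVL, an acyl-CoA dehydrogenase for long chains, had 0.0772 ± 0.231. The inner membrane enzyme CPT2 had -0.425 ± 0.309, and the electron carriers ETFA and ETFDH had 0.322 ± 0.291 and 0.366 ± 0.335. Without cow 7186 the means of these 3 genes were -0.146, -0.0703 and 0.107. The list median was -0.129 without cow 7186 and -0.14 without cow 7079.

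Fatty acid and triglyceride synthesis had 4 of 12 genes above 0 and a median of -0.213. All 5 cows had a list median below 0, between -0.0892 and -0.0374 in 4 cows and -0.407 in cow 7186, and the median without cow 7186 was -0.045. AGPAT1, an acyltransferase on the way to triglycerides, had -0.361 ± 0.162 (SE; limma, adjusted p = 0.492), of which cow 7186 gave -1.21 and the other cows between -0.282 and -0.0532. MGLL, a monoacylglycerol lipase, had -0.275 ± 0.194, or -0.0728 without cow 7186. ACLY, which makes cytosolic acetyl-CoA, had -0.243 ± 0.172 on 1 clone, or -0.0238 without cow 7186, and 0.466 ± 0.244 on another. Cholesterol and bile acid genes had 2 of 8 above 0 and a median of -0.157, with SOAT1, the enzyme that esterifies cholesterol, at -0.465 ± 0.157 and NSDHL, an enzyme of cholesterol synthesis, at 0.588 ± 0.299, or 0.358 without cow 7186.

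Among secreted proteins, 4 of 5 plasma protein genes lay above 0, with a median of 0.325 that became -0.0977 without cow 7186. SERPINA3-3, a protease inhibitor of the acute phase, had 0.542 ± 0.461, or 0.379 without cow 7186. TF had 0.325 ± 0.337, with cow 7186 at 1.32 and a mean of 0.0768 without it. APOA1, the apolipoprotein of high-density lipoprotein, had -0.427 ± 0.196 (limma, p = 0.0402, adjusted p = 0.492) and was lower in 4 of 5 cows. APOA1 had -0.792 with liver in Cy3 and -0.0621 with liver in Cy5. Complement genes had 6 of 11 above 0 and a median of 0.138, with cow medians from -0.897 in cow 6934 to 0.914 in cow 7079. That median turned to -0.271 without cow 7079, -0.129 without cow 7186 and -0.145 with array weights. The list's 3 genes with the smallest p were CD59, an inhibitor of the membrane attack complex, at 0.421 ± 0.306 (0.152 without cow 7186), C2 at 0.543 ± 0.425 and the C1 inhibitor SERPING1 at -0.367 ± 0.29.

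Urea cycle and amino acid genes had 7 of 13 above 0 and a median of 0.0084, which was 0.235 with liver in Cy3 and -0.162 with liver in Cy5. Glutamine synthetase (GLUL), which captures ammonia in the last hepatocytes along the sinusoid, had ratios of -0.607, -0.817, -0.696, -0.70 and -0.688 on day -65. On day -30 they were -0.0285, -0.863, 0.783, 0.306 and -0.132. The 5 cows were nearly alike on day -65 and wide apart on day -30, and cow 6983 alone did not go up. The difference was 0.715 ± 0.306 (SE; limma, p = 0.0283, adjusted p = 0.492), and 3 other clones of GLUL gave 0.297 ± 0.172, 0.278 ± 0.18 and 0.17 ± 0.246, the first and the second with all 5 cows above 0. SHMT2, the mitochondrial serine hydroxymethyltransferase, had 0.468 ± 0.221 but -0.0141 with liver in Cy5 alone, and GSTZ1, of tyrosine breakdown, had -0.317 ± 0.196.

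The growth hormone, insulin-like growth factor and insulin axis had 6 of 15 genes above 0 and a median of -0.0372. NR3C1, the glucocorticoid receptor, had 0.542 ± 0.352, carried by 2.65 in cow 7186 and 0.716 in cow 6983, with the other 3 cows below 0. PIK3R1, a regulatory subunit of phosphoinositide 3-kinase, had 0.457 ± 0.293. IGF2 had -0.256 ± 0.128 and was lower in all 5 cows, and its other clone had -0.0299 ± 0.288. In the list of xenobiotic and antioxidant enzymes 18 of 30 lay above 0 (median 0.0592). Glutathione reductase (GSR) had 0.62 ± 0.292 with all 5 cows above 0, the peroxidases GPX1 and PRDX4 had -0.363 ± 0.153 and 0.417 ± 0.212, and LOC327709, a mu class glutathione S-transferase, had 0.298 ± 0.254, or 0.0464 without cow 7186.

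Next came the machinery that makes and folds proteins. Of 45 genes for cytosolic ribosomal proteins, 38 lay above 0, with a median of 0.279 and a range from -0.148 to 0.61, and 2 of the 45 had an unadjusted p under 0.05, both higher, where 9.92% of all probes did. The list median was above 0 in 4 cows, from 0.148 to 0.466, and it was -0.201 in cow 6983. It was 0.639 with liver in Cy3 alone and -0.118 with liver in Cy5 alone, so the sign of this list depended on the dye orientation. RPS15A, a protein of the small subunit, had ratios of -1.21, -1.14, -1.55, -1.66 and -1.18 on day -65 and -0.476, -0.83, -0.959, -0.933 and -0.483 on day -30. Its days did not overlap, and the difference was 0.61 ± 0.245 (SE; limma, p = 0.0202, adjusted p = 0.492), 0.923 with liver in Cy3 and 0.297 with liver in Cy5. RPL27 had 0.425 ± 0.202 and, on its other clone, 0.39 ± 0.176. Translation factors had 20 of 33 above 0 and a median of 0.0687, again 0.325 with liver in Cy3 and -0.0885 with liver in Cy5, with EIF2B1, a subunit of the exchange factor for initiation factor eIF2, at -0.351 ± 0.152.

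Genes of folding and secretion in the endoplasmic reticulum had 37 of 55 above 0 and a median of 0.145, and 10 of the 55 had an unadjusted p under 0.05, 7 higher and 3 lower, against 9.92% of all probes, 5.34% higher and 4.58% lower. Cow 7186 had a list median of 0.603 and the other 4 cows between -0.0907 and 0.097, and without cow 7186 the median was 0.0161. DDOST, a subunit of the oligosaccharyltransferase that attaches sugar chains to new secretory proteins, had the smallest p of the list. Its ratios were -0.0658, -0.146, 0.00625, 0.0965 and -0.799 on day -65 and 1.07, -0.196, 0.686, 1.34 and 1.5 on day -30. Cow 6983 alone stayed where it was. The difference was 1.06 ± 0.277 (SE; limma, p = 0.000828, adjusted p = 0.492), and 2 further clones gave 0.861 ± 0.306 and 0.806 ± 0.321, each higher in 4 of 5 cows. It was 1.74 with liver in Cy3 and 0.387 with liver in Cy5. GANAB, the glucosidase that trims those sugar chains, had 0.575 ± 0.198, and SSR3, of the translocon-associated complex, had 0.511 ± 0.193.

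Heat shock proteins and chaperonins had 18 of 26 above 0 and a median of 0.153, or 0.00153 without cow 7186. HSPA9, the mitochondrial chaperone, had 0.807 ± 0.427, with day -30 wholly above day -65 but 2.17 of it in cow 7186 and 0.162 to 0.653 in the others. CCT8, a chaperonin subunit, had 0.733 ± 0.325, with 2.21 in cow 7186 and a mean of 0.365 without it. The proteasome had 14 of 23 above 0 and a median of 0.0885 (-0.053 with liver in Cy5 and -0.104 without cow 7079), with 0 genes at an unadjusted p under 0.05. Respiratory chain and ATP synthase genes had 27 of 46 above 0 and a median of 0.0909, which was 0.282 with liver in Cy3 and -0.112 with liver in Cy5. At an unadjusted p under 0.05 there were 3 of the 46, a smaller share than the 9.92% of all probes. They were NDUFB7 at -0.371 ± 0.158, NDUFB10 at -0.34 ± 0.148 and NDUFA8 at -0.335 ± 0.156, all subunits of complex I, and -0.176, -0.226 and -0.20 without cow 7186. NDUFB7 and NDUFB10 were lower in all 5 cows. Over the whole respiratory list, 3 genes were lower and 3 higher in all 5 cows. The cell cycle list had 14 of 23 above 0 and a median of 0.244, while the replication gene MCM4 lay at -0.424 ± 0.197 and the nuclear protein PTMA at 0.678 ± 0.319. The cell cycle kinase CDK2 had -0.371 ± 0.168 on 1 clone and 0.302 ± 0.341 on the other. Cow 7186 had -1.77 for MCM4, 2.16 for PTMA and -1.37 for the first CDK2 clone, whose means without it were -0.0884, 0.306 and -0.121.

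**Figure D4:**
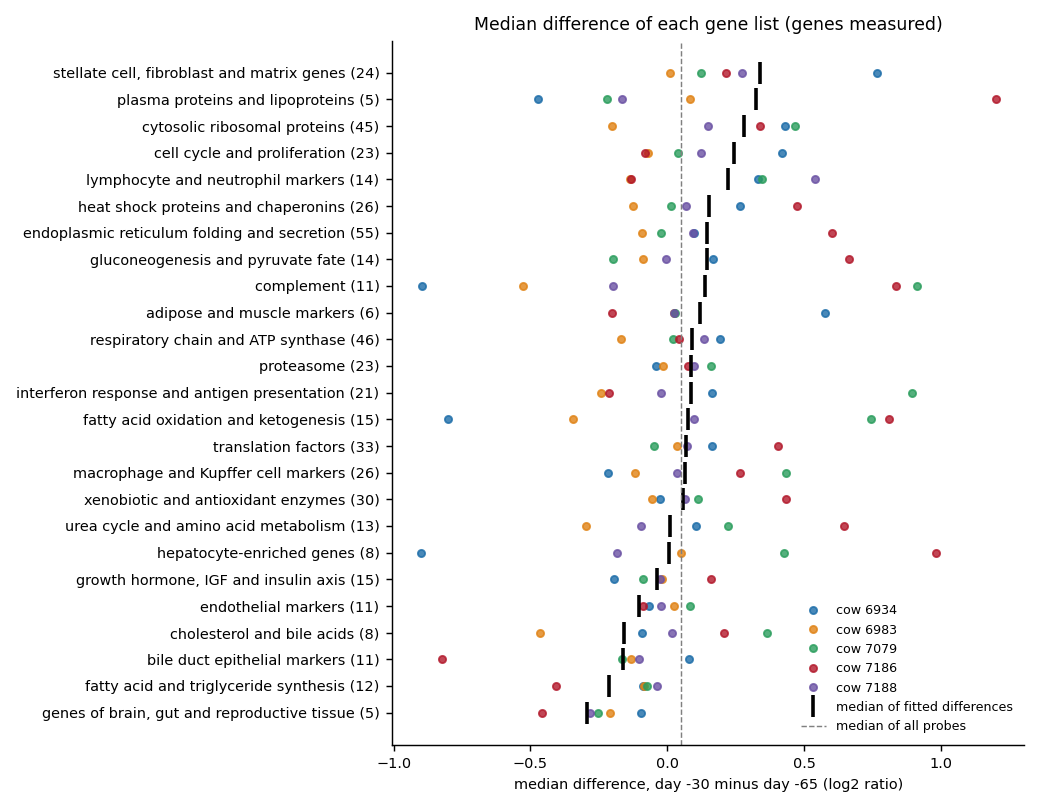
Median difference in log2 ratio (day -30 minus day -65, horizontal axis) of each gene list with at least 5 genes, with the number of genes measured in brackets; coloured dots are the medians in single cows, the black bar is the median of the 5-cow differences and the dashed line is the median of all probes, 0.0494. The matrix list has all 5 cows above 0, and the dots of cow 7186 lie far from the rest in several lists, such as the bile duct markers at -0.824.

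Other cell types that a piece of liver can hold were followed through their markers. In whole tissue, fewer cells of a type and less RNA per cell cannot be told apart. Genes of stellate cells, fibroblasts and matrix had 19 of 24 above 0 and the highest median of any list, 0.34, with cow medians of 0.765, 0.0106, 0.122, 0.213 and 0.274. As with the ribosomal list, the value rested on the orientation, at 0.612 with liver in Cy3 and -0.0072 with liver in Cy5, and it was 0.0484 after arrays were scaled to 1 spread. Of the 24 genes, 5 lay above the reference, where hepatocyte-enriched genes had 8 of 8 with both days averaged. Differences in the matrix list ran from -0.869 to 1.12. At an unadjusted p under 0.05 there were 5 of the 24, 4 higher and 1 lower, against 9.92% of all probes. LAMB1, a laminin chain of basement membranes, had 0.654 ± 0.271. Desmin (DES), a filament of stellate and muscle cells, had 0.525 ± 0.216 on 1 clone, or 0.29 without cow 7186, and -0.189 ± 0.148 on another.

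Lymphocyte and neutrophil markers had 9 of 14 above 0 and a median of 0.222. CORO1A, an actin regulator of blood cells, had 0.705 ± 0.289, the lymphocyte surface protein CD52 0.48 ± 0.21 and the cytotoxic granule protein GNLY -0.398 ± 0.179, or -0.159 without cow 7186. Interferon response and antigen presentation genes had 13 of 21 above 0 and a median of 0.0861, which turned to -0.166 without cow 7079, -0.0445 with liver in Cy5 alone and -0.0621 with array weights. CXCL9, a chemokine induced by interferon gamma, had ratios of 1.39, 1.37, 0.495, 0.783 and 0.422 on day -65. On day -30 they were 2.46, 1.38, 2.61, 0.57 and 1.80. Cows 6934, 7079 and 7188 were higher by 1.07, 2.12 and 1.38, cow 6983 was level and cow 7186 was lower. The difference was 0.873 ± 0.429 (SE; limma, p = 0.0535, adjusted p = 0.492). The immunoproteasome subunit PSMB8 and the peptide transporter TAP1 had the same cows high and low, with 2.54 and 0.68 in cow 7079, 1.52 and 1.35 in cow 7188 and -0.328 and -0.299 in cow 7186, around means of 0.796 ± 0.398 and 0.629 ± 0.288. These are 3 genes chosen by their p-values, and the whole list did not show the same cows: its medians were 0.164 in cow 6934, -0.243 in cow 6983, 0.894 in cow 7079, -0.213 in cow 7186 and -0.024 in cow 7188. The lymphocyte list had medians of 0.333 in cow 6934, 0.346 in cow 7079 and 0.541 in cow 7188 against -0.138 in cow 6983 and -0.134 in cow 7186; the part of lymphocytes in the CXCL9 values was not tested.

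Macrophage and Kupffer cell markers had 15 of 26 above 0 and a median of 0.0633, which was below 0 in each orientation alone (-0.0355 with liver in Cy3 and -0.0744 with liver in Cy5), with LAPTM5, a lysosomal protein of blood cells, at 0.728 ± 0.388 and the metal transporter SLC11A1 at -0.664 ± 0.36. Endothelial markers had 5 of 11 above 0 and a median of -0.103. ROBO4, a receptor of vascular endothelium, had -0.432 ± 0.164 (limma, p = 0.0146, adjusted p = 0.492) and was lower in 4 of 5 cows, with -1.32 in cow 7186 and a mean of -0.211 without it. Endoglin (ENG), a co-receptor for transforming growth factor beta, had 0.465 ± 0.28. LYVE1, a hyaluronan receptor of sinusoidal lining cells, had 0.595 ± 0.388, of which cow 7186 gave 2.27 and the others between -0.00675 and 0.268. Bile duct markers had 3 of 11 above 0 and a median of -0.162, with the junction protein CLDN4 at -0.39 ± 0.17, or -0.173 without cow 7186. Adipose and muscle markers had 4 of 6 above 0 and a median of 0.118, and the tropomyosin TPM2 had 0.227 ± 0.146. The erythroid list came down to the membrane protein GYPC, at 0.057 ± 0.311. Hepatocyte-enriched genes themselves had 4 of 8 above 0 and a median of 0.00457, or -0.327 without cow 7186, with cow medians from -0.90 in cow 6934 to 0.981 in cow 7186.

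A small list of genes from brain, gut and reproductive tissue was kept as a set that liver should not make much of. It had 1 of 5 above 0 and a median of -0.292. The 1 above 0 was MBP at 1.06 ± 0.419, higher in all 5 cows, while its other clones gave -0.10 and 0.352. With both days averaged, 3 of the 5 genes lay above the reference. TKDP1, a Kunitz domain protein of the ruminant trophoblast, had ratios of 0.613, 0.454, 1.11, 0.51 and 0.835 on day -65 and -0.126, -0.351, 0.167, -0.0267 and 0.232 on day -30. All values of day -30 were below all of day -65. The difference was -0.726 ± 0.245 (SE; limma, p = 0.00685, adjusted p = 0.492), within a narrow span of -0.945 to -0.537 over the 5 cows, and it was -1.16 with liver in Cy3 and -0.292 with liver in Cy5. On day -14 TKDP1 lay at 0.671 ± 0.336 (n = 3), near its day -65 mean of 0.705 ± 0.27. On day 14 it lay at -0.0192 ± 0.261 (n = 3), near its day -30 mean of -0.0209 ± 0.234. Its means were 0.579 on day 1, 0.309 on day 28 and 0.408 on day 49. The pituitary hormone precursor POMC had -0.291 ± 0.136 and was lower in 4 of 5 cows. Whether a transcript of liver binds the TKDP1 clone, and which one, was not tested.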

How the data were processed

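Liver RNA was hybridised with a reference RNA on 2-colour cDNA arrays, scanned on a Scanarray 4000 and quantified with GenePix 4.0, per the labels. The deposited values are log2 ratios made by the authors; for background correction, normalization and the numerator dye the sources used here give nothing. Here each array was centred on its median, arrays with liver in Cy3 were turned, and the 2 spots per clone and both dye orientations were averaged to 1 value per cow and day. A probe was tested where 3 or more cows had it on every day of the table. Of 5693 named clones, 5598 name 1 gene; 5030 unnamed rows formed a separate family, with 3570 tested and 0 called by limma (319, or 8.94%, at an unadjusted p under 0.05). The main fit used limma 3.58.1 in R 4.3.3 on 30 cow-days, with terms for day and cow, moderated 2-sided tests and Benjamini-Hochberg adjustment. It was run on simulated data in which all cow-days of a probe had the same spread. The real cow-days had array weights from 0.204 to 10.3, which that simulation did not cover. The number of arrays limits precision. Same-numbered samples are the same cow, so cow is a block. Levels correlated between the days at 0.541 to 0.866 within a cow (median 0.727) and at 0.459 to 0.852 between cows (median 0.735). By the medians, levels of the same cow were no more alike than those of different cows. Genes were named as the 10 each way with the largest difference among those with 1 sign in 5 cows and an unadjusted p under 0.05, the 3 per list with the smallest p, and PC, PDK4, CPT1A, ACSL1, ACADVL, APOA1 and LOC327709. The comparison, its gene lists and this rule were chosen with earlier results of these data known. Alternatives changed the fit, centring, dye orientation, spots, filter and cows.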

Additional observations from a re-analysis of the deposited data

Results flagged for a closer look

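Within single genes, 12 of 96 named probes had 1 cow far from the other 4 in the difference between the days (a gap over 0.71 of the range). Chance alone flags about 1 in 20 groups, and the probes share the same arrays. The named probes were picked largely by this contrast, and the share of all probes so flagged was not counted. The 12 of 96 therefore cannot be read as a trait of these genes. Cow 7186 was the distant animal for KLF6 at 2.70, HSPA9 at 2.17, PSMD7, a proteasome subunit, at 2.59, and LYVE1 at 2.27. It was also the distant one, on the low side, for AGPAT1 at -1.21, CDK2 at -1.37, MCM4 at -1.77, CTSH, a lysosomal protease, at -1.25, the kinase chaperone CDC37 at -1.04 and EIF2S1, a subunit of initiation factor eIF2, at -0.882. Cow 7079 stood apart for LOC281964 at -1.67 and cow 6983 for PRDX4 at -0.575.

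Of 25 gene lists, 3 had a distant cow in their medians, each time cow 7186: fatty acid and triglyceride synthesis at -0.407, bile duct markers at -0.824 and endoplasmic reticulum folding and secretion at 0.603. The same cow stood apart in the median size of its difference over all probes, 0.699. In all, 14 of 16 such values belonged to cow 7186. Its difference agreed best between the dye orientations, with a correlation over probes of 0.570 against -0.140 to 0.277 in the other cows. The -0.140 belonged to cow 7188, whose difference over all probes was thus not reproduced between the orientations. Whether cow 7186 or its arrays set the values that stood apart was not tested.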

How the results depend on the processing

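The count of 0 probes past an adjusted p of 0.05 was also found with only the 2 days in the paired fit, with no replicate block, with cow as a random effect, with another prior, centring, spot choice, filter or dye orientation, and without any 1 cow (0 to 0). Array weights gave 82 probes (1.55%; 68 higher and 14 lower, 41 with 1 sign in 5 cows), led by NOCT at 1.52 (limma, adjusted p = 0.00176). With them 12 named genes were called, and 0 with the alternatives that used no array weights. Calls of named genes with the further weights given below were not counted. On these days the weights ran up to 5.64 for day -30 of cow 7188 and down to 0.204 for day -65 of cow 7186. The exchanged pair of cow 7188 on day -30 correlated at -0.0664, the nearest to 0 on these days. The difference between the days in cow 7188 correlated at -0.140 over probes between the dye orientations, the lowest of the 5 cows. Weights estimated gene by gene, added after seeing the data, gave 65, all among the 82. Array weights with 1 cow left out, also added after seeing the data, gave 3 without cow 6934, 120 without 6983, 135 without 7079, 26 without 7186 and 0 without 7188; the cause was not tested. At an unadjusted p under 0.05, counts were 294 with only the 2 days, 271 without the block, 1102 with array weights, 208 uncentred and 239 without cow 7186, against 524. Higher and lower probes were 241 and 53 with only the 2 days and 191 and 80 without the block. They were 768 and 334 with array weights, 90 and 118 uncentred and 165 and 74 without cow 7186, against 282 and 242. Of 96 named probes, 87 kept their sign in every alternative run. Signs turned with array weights for ACADVL (-0.0336), ACSL1 (-0.0732), CIDEA (0.00312) and PDK4 (-0.00797); with liver in Cy5 alone for ACADVL (-0.13), GYPC (-0.567) and SHMT2 (-0.0141); with liver in Cy3 alone for PDK4 (-0.12); with the first spot for ACADVL (-0.0352); after scaling for CPT1A (0.235). With 1 cow left out the values spanned 0 for ACADVL (-0.14 to 0.342), ACSL1 (-0.302 to 0.693), ASGR2 (-0.86 to 0.0734), CPT1A (-0.448 to 0.101), ETFA (-0.0703 to 0.517), GYPC (-0.041 to 0.214) and PDK4 (-0.409 to 0.51). The cause was not tested. Of the 26 list medians, 8 kept their sign throughout: bile duct, cell cycle, cholesterol, folding, fatty acid synthesis, heat shock, lymphocyte and the brain, gut and reproductive list. Liver in Cy5 alone turned 12 (adipose, ribosomal, erythroid, gluconeogenesis, growth hormone axis, interferon, macrophage, proteasome, respiratory, matrix, translation and urea cycle). Array weights turned 7 (complement, fatty acid oxidation, hepatocyte, interferon, macrophage, plasma and urea cycle), and leaving out 1 cow turned 4 (cow 6934), 0 (6983), 7 (7079), 7 (7186) and 1 (7188). Of the other alternatives, liver in Cy3 alone, no centring and the first spot turned 2 each, scaling and the last spot 1 each. Scaling took the plasma protein median from 0.325 to 1.70.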
